A study of Mus musculus with 5 samples.

Results

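The SR proteins and hnRNP proteins are RNA-binding splicing factors, and their genes were followed in the heart ventricles of mouse embryos exposed to caffeine in the womb. Members were all rows of the RefSeq gene table with the symbol Srsf and a number or with a symbol beginning Hnrnp, which gave 29 of 18307 genes. There were 11 SR genes and 18 hnRNP genes, with 64 of the 25187 RefSeq transcripts in the table, 3 of which carried a noncoding (NR_) identifier. Genes of the same class under other symbols, such as Hnrpdl and Hnrpll, fell outside the symbol rule.

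The caffeine group held 3 libraries from CD-1 embryos whose dams were given caffeine at 20 mg/kg each day from E6.5 to E9.5. The vehicle group held 2 libraries from CD-1 embryos whose dams were given 0.9% NaCl on the same days. CD-1 is an outbred mouse strain, and all ventricles were taken at E10.5. Each library was a pool of ventricles from embryos that shared dams, so a library holds many embryos and all ventricular cell types, and fewer cells of a type cannot be told apart from less RNA per cell.

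SR proteins bind exonic enhancers through RNA recognition motifs and recruit the spliceosome through arginine- and serine-rich domains, while many hnRNP proteins bind silencers or coat nascent RNA and oppose exon inclusion. Many genes of both families regulate themselves: high protein levels favour inclusion of a poison exon, or splicing within the 3′ untranslated region, which yields an RNA with an early stop that is degraded by nonsense-mediated decay or kept in the nucleus. A noncoding or decay-prone transcript of such a gene is therefore a different product of the same locus and not an additional source of protein. In the mouse heart, loss of Srsf1 disturbs the splicing of genes of calcium handling and contraction.

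The sequences below are shown because the results turn on the transcripts that carry them. In GENCODE M21 (GRCm38, mm10), NR_036613 of Srsf3 is paired with a 7-exon transcript of the nonsense-mediated decay class. Its exon 4, 456 bases at chr17:29039454-29039909 on the plus strand, is absent from the coding transcript NM_013663. NR_036615 of Srsf7 is paired with a 9-exon transcript of the same class, whose exon 4 holds 460 bases at chr17:80204622-80205081 on the minus strand and is absent from NM_146083. In GENCODE both pairs also differed at their outer ends, and the Srsf7 pair by 9 further coding bases. The start of each extra exon is printed from 5′ to 3′ up to the stop codon annotated in it, with the stop codon in capitals. The Srsf3 stretch lies at chr17:29039454-29039487 and the Srsf7 stretch at chr17:80205054-80205081.
Srsf3 exon 4: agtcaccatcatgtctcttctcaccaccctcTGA
Srsf7 exon 4: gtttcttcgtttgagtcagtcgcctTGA
The reading frame ran through 31 bases of the Srsf3 exon and 25 bases of the Srsf7 exon before the stop, which left 422 and 432 bases of the exon behind it in Srsf3 and in Srsf7.

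Coding segments of a pair of hnRNP genes are shown for the same reason, in lower case throughout. NM_146130 of Hnrnpa3 has 66 coding bases at chr2:75659324-75659389 on the plus strand that NM_053263 lacks. In GENCODE the transcript paired with NM_053263 also has 3568 noncoding bases at its 3′ end that the one paired with NM_146130 lacks, while both end at the same position in the deposited table. NM_016806 of Hnrnpa2b1 has a coding exon of 120 bases at chr6:51464428-51464547 on the minus strand that NM_182650 lacks, and also a noncoding exon of 136 bases; this pair differs at its outer ends too.
Hnrnpa3 segment: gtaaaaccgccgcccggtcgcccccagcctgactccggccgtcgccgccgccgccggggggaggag
Hnrnpa2b1 exon 8: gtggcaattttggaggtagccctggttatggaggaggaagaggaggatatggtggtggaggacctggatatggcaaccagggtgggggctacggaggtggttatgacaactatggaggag

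Gene totals lay between 21713381 and 25048134 estimated counts per library. Of 10 markers of ventricular cardiomyocytes 0 were at 0 in every library. Their summed level was 34012 to 35222 CPM (counts scaled to a common library size) in the caffeine libraries and 38520 to 41636 CPM in the vehicle libraries. Singly, Myh6, Myh7, Myl2 and Ttn were lower in every caffeine library, while Tnnt2, Actn2, Actc1 and Myl3 overlapped between the groups. Nkx2-5 and Nppa overlapped too, with positive log2 fold changes of 0.13 and 0.12. Summed levels of 11 embryonic erythroid markers overlapped between the groups, at 6663 to 10509 CPM in caffeine and 6302 to 10870 CPM in vehicle. The sum of 6 neural markers was 77.4 to 118 CPM in caffeine and 124 to 125 CPM in vehicle. Most of it was Nes, at 68.3, 90.9 and 93.3 CPM in caffeine and 108 and 110 CPM in vehicle. Each of the other neural markers overlapped, with Tubb3 at a log2 fold change of 0.31. The sum of 10 foregut and hepatic endoderm markers was 8.53 to 45.0 CPM in caffeine, against 10.6 CPM in vehicle replicate 1 and 136 CPM in vehicle replicate 2. Among the 5 tested of 7 RNA-quality and non-polyadenylated RNAs, the ribosomal precursor Rn45s had 1683, 2724 and 2672 CPM in caffeine replicates 1, 2 and 3, against 8910 and 5303 CPM in vehicle replicates 1 and 2. The nuclear noncoding RNA Neat1 had 1.99, 1.76 and 2.41 CPM in caffeine and 0.659 and 0.683 CPM in vehicle. Lars2 had 132, 180 and 177 CPM in caffeine and 486 and 293 CPM in vehicle, and Rmrp was lower in every caffeine library too, while Malat1 overlapped. DESeq2 called Rn45s (DESeq2 adjusted p = 1.36e-08) and Lars2 (4.15e-06), and edgeR called 0 of the 5, with 4 at an unadjusted p under 0.05. The cardiomyocyte sum, Myh6, Myh7, Myl2, Ttn, the neural sum, Nes, Rn45s, Neat1, Lars2 and Rmrp separated the groups. The gene totals and the other levels given here overlapped. The part of all these values in the results below was not tested.

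At the gene level the total RNA of no SR or hnRNP gene passed the test. edgeR's quasi-likelihood test with Benjamini-Hochberg adjustment over all genes called 0 of the 29 genes at 0.05, where 0.00723% of the 13829 genes tested passed, and DESeq2 also called 0 of the 29, where 0.0996% of all genes passed. At an unadjusted p under 0.05 there were 2 of the 29 genes, 0 higher and 2 lower, beside 3.13% higher and 2.07% lower of all genes. The hnRNP genes lay mostly below 0: 3 of 18 had a positive and 15 a negative log2 fold change (caffeine minus vehicle), with a median of -0.17, against 0.01 over all genes tested. Of the 11 SR genes 7 were positive and 4 negative, with a median of 0.05.

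Hnrnpc, which binds uridine tracts in nascent RNA, had 300, 312 and 268 CPM in caffeine and 400 and 344 CPM in vehicle. Every caffeine library was below both vehicle libraries, and the edgeR log2 fold change of -0.34 (SE 0.13) had an adjusted p of 0.912. Hnrnpu, a large protein that associates with chromatin and the nuclear matrix, had 744, 861 and 760 CPM in caffeine and 972 and 983 CPM in vehicle. Its libraries did not overlap either, and its edgeR adjusted p was 0.930 at a log2 fold change of -0.31 (SE 0.12). At an unadjusted p under 0.05 in DESeq2, 0 members were higher and 5 lower, beside 308 and 309 of 18076 genes. In edgeR with RLE scaling 0 were higher and 4 lower, beside 394 and 324 of 13829 genes. Leaving out caffeine replicates 1, 2 and 3 in turn gave 3, 4 and 0 lower members in edgeR and 0 higher. Of all genes 384 of 13657, 226 of 13737 and 183 of 13732 were lower in these fits. Without vehicle replicates 1 and 2 in turn the median log2 fold change of the hnRNP genes was -0.15 and -0.22.

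Hnrnpa1, Hnrnpa2b1 and Hnrnpa3, whose proteins bind exonic and intronic silencers, showed the same ordering. Hnrnpa1 had 332, 321 and 228 CPM in caffeine and 397 and 345 CPM in vehicle (log2 fold change -0.33, SE 0.16). Hnrnpa2b1 had 861, 956 and 743 CPM in caffeine and 1049 and 1010 CPM in vehicle (log2 fold change -0.27, SE 0.13). Hnrnpa3 had 277, 282 and 228 CPM in caffeine and 316 and 320 CPM in vehicle (log2 fold change -0.28, SE 0.13), but its log2 fold change was -0.06 in the Ensembl gene table. In all 3 genes caffeine replicate 3 was the lowest library. Hnrnpa0, a single-exon member of the A group, had the opposite order, with 553, 559 and 568 CPM in caffeine and 544 and 487 CPM in vehicle, and Hnrnpab overlapped between the groups.

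Hnrnpd, also called AUF1, binds AU-rich elements and had 282, 336 and 295 CPM in caffeine and 376 and 357 CPM in vehicle (log2 fold change -0.27, SE 0.12). Hnrnpm, which binds GU-rich RNA, had 360, 397 and 346 CPM in caffeine and 446 and 409 CPM in vehicle (log2 fold change -0.22, SE 0.12). Hnrnpk, which binds cytosine-rich RNA through KH domains, had 458, 488 and 440 CPM in caffeine and 522 and 506 CPM in vehicle (log2 fold change -0.15, SE 0.12). The libraries of these 3 genes did not overlap, and none passed the edgeR test. Hnrnph2, which binds runs of guanines, had 141, 148 and 129 CPM in caffeine and 156 and 165 CPM in vehicle. Hnrnpul2, a relative of Hnrnpu, had 229, 250 and 227 CPM in caffeine and 264 and 274 CPM in vehicle.

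Counted over all members, 10 of 29 genes were lower in every caffeine library than in both vehicle libraries, beside 9.27% of all genes tested, and all 10 were hnRNP genes. Only Hnrnpa0 was higher in every caffeine library, beside 11.2% of all genes tested. The libraries of the remaining 18 members overlapped, among them those of Hnrnpl, which binds CA repeats, and of Hnrnph1, the paralog of Hnrnph2. Hnrnpl had 471, 533 and 550 CPM in caffeine and 592 and 533 CPM in vehicle. Hnrnph1 had 314, 362 and 317 CPM in caffeine and 323 and 321 CPM in vehicle. The other 5 hnRNP genes with overlapping libraries were Hnrnpab, Hnrnpf, Hnrnph3, Hnrnpr and Hnrnpul1.

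The SR genes stood at similar levels in both groups, and the libraries of all 11 overlapped. Srsf1, the prototype of the family, had 442, 534 and 476 CPM in caffeine and 440 and 474 CPM in vehicle (log2 fold change 0.08, SE 0.13). Srsf2, also called SC35 and long used as a marker of nuclear speckles, had 331, 416 and 465 CPM in caffeine and 396 and 370 CPM in vehicle. Srsf3, which couples splicing to mRNA export, had 288, 336 and 272 CPM in caffeine and 359 and 320 CPM in vehicle (log2 fold change -0.19, SE 0.13). Its caffeine replicate 2 lay between the vehicle libraries. Srsf7, a relative of Srsf3 with a zinc knuckle, had 152, 190 and 167 CPM in caffeine and 170 and 168 CPM in vehicle (log2 fold change 0.01, SE 0.13).

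Srsf5 had 83.8, 90.4 and 98.7 CPM in caffeine and 87.5 and 64.1 CPM in vehicle (log2 fold change 0.26, SE 0.16), and only vehicle replicate 2 stood below the caffeine libraries. Its log2 fold change was 0.03 without vehicle replicate 2, 0.50 without vehicle replicate 1 and 0.49 in the Ensembl gene table. Srsf10, which represses splicing when it loses its phosphates, had 154, 158 and 141 CPM in caffeine and 130 and 149 CPM in vehicle. The atypical family member Srsf12 was scarce, at 2.33, 1.50 and 0.953 CPM in caffeine and 1.65 and 1.87 CPM in vehicle. The other SR genes (Srsf4, Srsf6, Srsf9 and Srsf11) had log2 fold changes of -0.08 to 0.19.

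**Figure D1:**
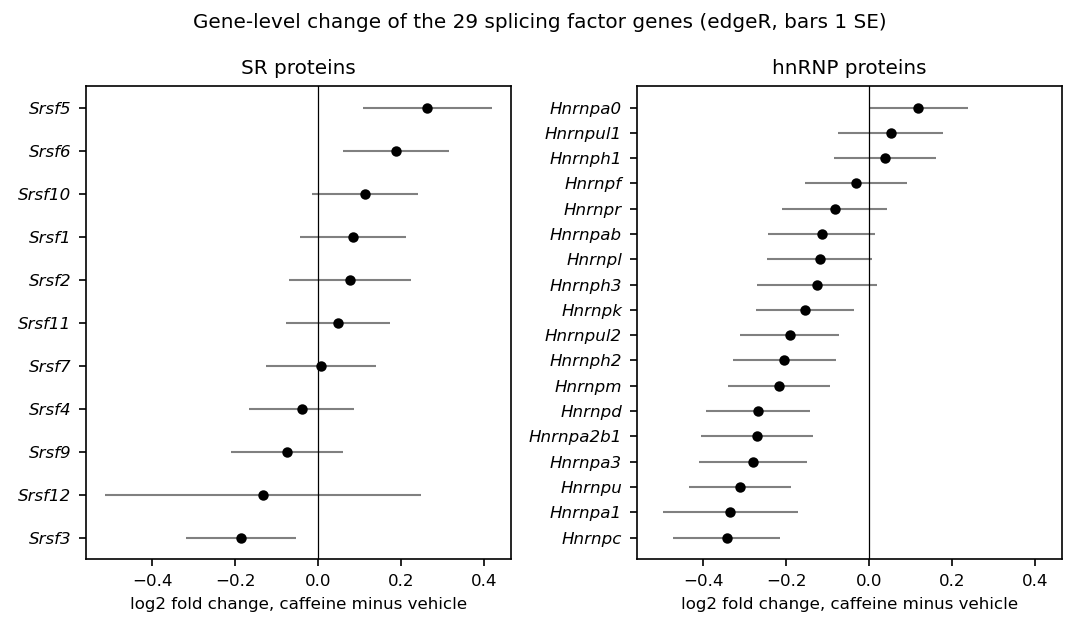
Gene-level log2 fold change of each of the 11 SR genes (left) and 18 hnRNP genes (right), caffeine minus vehicle, with bars of 1 SE from edgeR. The hnRNP genes lie mostly left of 0, with 15 of 18 negative, while 7 of 11 SR genes are positive, and none passed the test.

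The spans of some members overlap those of other genes. Rows named as predicted genes (Gm symbols) overlap the spans of Hnrnpa1, Hnrnpa3, Hnrnpc, Hnrnph2, Hnrnpr, Hnrnpul2, Srsf4 and Srsf10 in part or over their whole length, and whether counting used strand is not given in the sources used here. Hnrnpab, Hnrnph3, Hnrnpk and Srsf4 overlap Agxt2l2, Rufy2, Rmi1 and Gm12992 on the opposite strand by 3170, 4079, 269 and 2248 bases. These are overlaps of whole spans and not of exons, and their effect on the counts was not tested.

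At the level of single transcripts the noncoding RNA of Srsf3 stood furthest from no change. NR_036613 had 60.3, 59.9 and 80.8 CPM in caffeine and 19.9 and 25.8 CPM in vehicle. All caffeine libraries were above both vehicle libraries, and the log2 fold change was 1.55 (SE 0.20). The coding transcript NM_013663 had 227, 274 and 191 CPM in caffeine and 338 and 293 CPM in vehicle, a log2 fold change of -0.45 (SE 0.16). Its caffeine libraries were all below the vehicle libraries, so the transcript pair stood in opposite directions while the gene total overlapped.

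The noncoding transcript of Srsf7 followed the same order. NR_036615 had 18.3, 16.2 and 19.5 CPM in caffeine and 4.40 and 8.52 CPM in vehicle (log2 fold change 1.48, SE 0.30). The groups did not overlap, and vehicle replicate 2 was nearer to the caffeine libraries than vehicle replicate 1. The main coding transcript NM_146083 had 89.8, 115 and 113 CPM in caffeine and 120 and 104 CPM in vehicle, and its groups overlapped. The third noncoding transcript, NR_036616 of Srsf9, was listed at 0.664, 0 and 0.454 CPM in caffeine and 0.0411 and 0.272 CPM in vehicle, too few counts to separate the groups.

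Srsf11, an atypical SR protein also known as p54, had a transcript with the same order. NM_026989 had 10.9, 8.69 and 11.1 CPM in caffeine and 2.26 and 5.17 CPM in vehicle (log2 fold change 1.46, SE 0.37), again without overlap. Its 5′ end, at position 158023422 on chromosome 3 (mm10, minus strand), lies inside an intron of NM_001093752 that runs from 158022951 to 158026724. A GENCODE M21 transcript of the retained-intron class has the same 5′ end. The full-length NM_001093752 had 67.3, 68.9 and 62.1 CPM in caffeine and 63.1 and 63.3 CPM in vehicle.

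Among hnRNP transcripts those with the smallest p were lower in caffeine. NM_001170983 of Hnrnpc had 32.9, 29.1 and 19.0 CPM in caffeine and 61.0 and 52.9 CPM in vehicle (log2 fold change -1.08, SE 0.23). NM_053263 of Hnrnpa3, which lacks the 66-base segment printed above, had 97.5, 94.3 and 45.3 CPM in caffeine and 146 and 165 CPM in vehicle (log2 fold change -0.98, SE 0.29). Both separated the groups, with caffeine replicate 3 lowest. NM_146130, which holds the segment, had 179, 187 and 183 CPM in caffeine and 169 and 154 CPM in vehicle. The pair differs by more than the segment in GENCODE, so the shift between them is one of whole transcripts. NM_053263 made up 35.2%, 33.5% and 19.9% of the Hnrnpa3 counts in caffeine and 46.4% and 51.6% in vehicle.

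NM_016806 of Hnrnpa2b1, which carries the printed exon 8, had 536, 578 and 402 CPM in caffeine and 745 and 669 CPM in vehicle (log2 fold change -0.48, SE 0.17). NM_182650, which skips that exon, had 325, 375 and 342 CPM in caffeine and 301 and 337 CPM in vehicle. The longer form held 62.3%, 60.7% and 54.0% of the gene's counts in caffeine and 71.2% and 66.5% in vehicle. For Hnrnpa1 the form without a coding exon of 159 bases, NM_010447, had 146, 135 and 109 CPM in caffeine and 202 and 178 CPM in vehicle (log2 fold change -0.55, SE 0.15). NM_001039129, which has that exon, overlapped between the groups. The lower form thus lacked the alternative exon in Hnrnpa1 and carried it in Hnrnpa2b1.

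edgeR called 0 of the 63 tested member transcripts at an adjusted p of 0.05, as it called 0.0% of all 18418 transcripts. The edgeR adjusted p was 0.149 for NR_036613, 0.247 for NR_036615, 0.272 for NM_001170983 and 0.370 for NM_026989. At an unadjusted p under 0.05 there were 4 member transcripts higher and 7 lower in caffeine, beside 3.84% higher and 3.51% lower of all transcripts. All 4 higher ones belonged to SR genes, and 6 of the 7 lower ones to hnRNP genes. DESeq2, on the same counts, called 4 member transcripts where 1.02% of all transcripts passed. These were NR_036613 (DESeq2 adjusted p = 9.38e-10), NR_036615 (0.000667), NM_001170983 (0.00238) and NM_026989 (0.0214), of which the Srsf3 transcript was singled out with its share already known. Without overlap there were 10 member transcripts higher and 20 lower in every caffeine library, beside 12.2% higher and 11.0% lower of all transcripts.

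**Figure D2:**
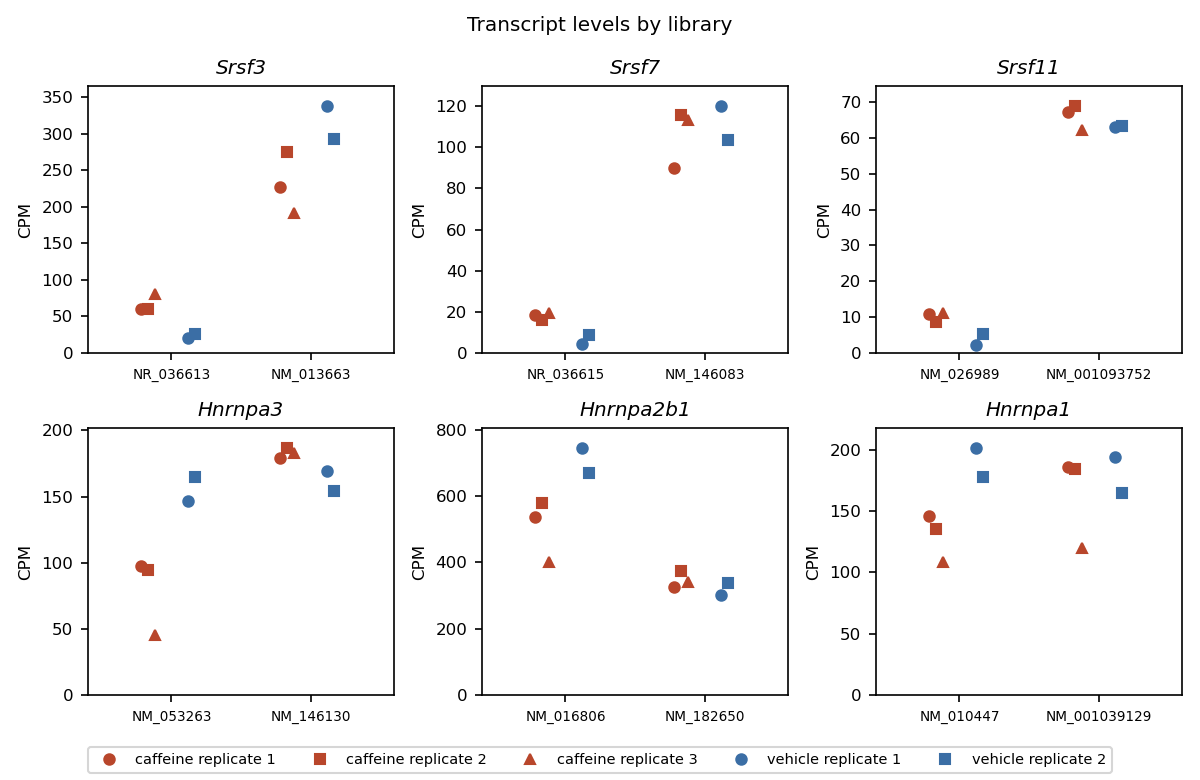
CPM of paired RefSeq transcripts of 6 genes in each library, with the caffeine libraries to the left of the vehicle libraries and a symbol for each replicate. NR_036613, NR_036615 and NM_026989 are higher in all 3 caffeine libraries, and NM_053263, NM_016806 and NM_010447 are lower in all 3.

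The noncoding share of Srsf3, the share of its RefSeq counts given to NR_036613, was 21.0%, 17.9% and 29.7% in caffeine replicates 1, 2 and 3, against 5.56% and 8.10% in vehicle replicates 1 and 2. The mean was 22.9% ± 6.10 in caffeine (SD, n = 3) and 6.83% ± 1.80 in vehicle (SD, n = 2), a difference of 16.0 percentage points. The groups did not overlap, and an exact two-sided permutation test, which doubled the smaller tail, gave p = 0.2. With that doubling 0.2 is the smallest p that 3 against 2 libraries allow. The share was known from these data when Srsf3 was singled out, so the values are a description. For Srsf7 the noncoding share was 12.1%, 8.56% and 11.7% in caffeine and 2.59% and 5.11% in vehicle. Summed over the 3 members with a noncoding transcript, the share was 16.0%, 13.1% and 20.3% in caffeine and 4.11% and 6.40% in vehicle. Mean noncoding counts were 1137 in Srsf3, 309 in Srsf7 and 6.6 in Srsf9. The sum thus mostly restates the Srsf3 share and is no further support for it.

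The same share could be taken in 239 RefSeq genes with both kinds of transcript and at least 50 total and 10 noncoding counts on average. It was higher in every caffeine library in 44 of them (18.4%) and lower in every caffeine library in 33 (13.8%), with a median difference of 0.573 percentage points. Both members with enough counts, Srsf3 and Srsf7, were among the 44. Of 5 genes from lists of other splicing factors, 4 were among them too. Clk1, a kinase that phosphorylates SR proteins and is regulated by intron retention, had a noncoding share of 47.3%, 45.2% and 77.4% in caffeine and 27.6% and 28.8% in vehicle. Luc7l, whose yeast counterpart is a U1 snRNP protein, had 26.1%, 26.0% and 34.1% in caffeine and 6.55% and 11.3% in vehicle.

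Rbmx, which encodes hnRNP G, had a noncoding share of 18.9%, 12.5% and 13.0% in caffeine and 4.12% and 8.68% in vehicle. Khdrbs1, the RNA-binding protein Sam68, had 2.83%, 2.56% and 6.90% in caffeine and 0.768% and 1.32% in vehicle. None of these groups overlapped, and caffeine replicate 3 was the highest library for Srsf3, Clk1, Luc7l and Khdrbs1. Tardbp, which encodes TDP-43, was the exception, with overlapping shares of 0.858%, 1.55% and 1.52% in caffeine and 1.50% and 1.39% in vehicle.

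**Figure D3:**
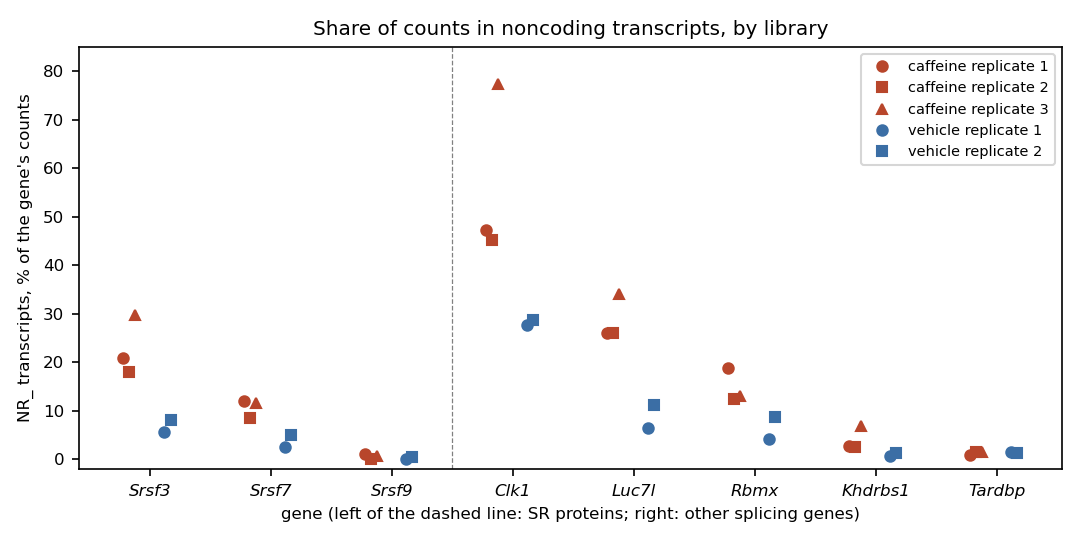
Percentage of each gene's RefSeq counts given to NR_ transcripts in each library, for the 3 SR genes that have such a transcript (left of the dashed line) and 5 other splicing genes, with caffeine libraries left of vehicle libraries. All caffeine points lie above the vehicle points except for Srsf9 and Tardbp, whose points overlap.

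Transcript usage, the balance among the transcripts of a gene, was compared by the gene-level F test of edgeR. Of the 17 members with several RefSeq transcripts 1 passed, Srsf3, beside 3.07% of the 2897 genes tested. Srsf3 has a pair of RefSeq transcripts, so this is the shift toward NR_036613 that its noncoding share measures and for which it was singled out, and the call is a description of that share and no further support for it. The next members were Srsf11 (edgeR adjusted p = 0.0613), Hnrnpa3 (0.103), Srsf7 (0.176) and Hnrnpa2b1 (0.183). Hnrnpa1, whose transcript pair is given above, had an edgeR adjusted p of 0.523 for usage. Leaving out a vehicle replicate left 1 vehicle library, with its spread taken to equal that of the caffeine libraries. The Srsf3 call was lost without vehicle replicate 1 and kept without vehicle replicate 2. The difference in its noncoding share was 14.8 percentage points without vehicle replicate 1 and 17.3 without vehicle replicate 2.

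The Ensembl tables list more transcripts per gene, and usage there was examined after the RefSeq results were seen. Of 25 members tested 12 passed, beside 6.94% of 7540 genes. They were Srsf1, Srsf2, Srsf3, Srsf4, Srsf5 and Srsf11, and Hnrnpa3, Hnrnpd, Hnrnph1, Hnrnph2, Hnrnpl and Hnrnpu. Members had a median of 5 tested transcripts against 3 over all genes, and among genes with at least 5 tested transcripts 8 of 14 members and 11.6% of all 1832 genes passed. The edgeR adjusted p was 0.000306 for Hnrnph1, 0.000424 for Srsf5 and 0.00815 for Srsf4. Without vehicle replicate 1 only Hnrnpu and Srsf5 passed, beside 0.651% of all genes, and 13 members passed without vehicle replicate 2, beside 12.8%. Leaving out caffeine replicates 1, 2 and 3 in turn left 6, 7 and 6 members, beside 3.02%, 3.83% and 2.8% of all genes.

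No single member transcript of the Ensembl table passed: edgeR called 0 of 152, with 31 higher and 22 lower at an unadjusted p under 0.05, beside 6.11% and 4.6% of all transcripts. Transcript names are those of Ensembl release 71, and their structures were not used here; those named below were chosen after their values were seen. Srsf5-005 had 42.2, 33.5 and 31.7 CPM in caffeine and 4.82 and 8.23 CPM in vehicle. It made up 45.2%, 35.2% and 31.7% of the Srsf5 counts in caffeine and 6.08% and 13.4% in vehicle, and the groups did not overlap. Srsf5-001 was lower, at 3.10, 3.61 and 4.24 CPM in caffeine and 10.7 and 7.72 CPM in vehicle.

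Srsf3 had 4 Ensembl transcripts tested, and among them the minor Srsf3-002 and Srsf3-003 were higher in every caffeine library. Srsf3-002 had 32.9, 34.1 and 41.7 CPM in caffeine and 17.4 and 18.3 CPM in vehicle, and Srsf3-003 had 26.7, 26.3 and 27.0 CPM in caffeine and 6.24 and 11.0 CPM in vehicle. Srsf1-006 had 39.7, 41.3 and 62.4 CPM in caffeine and 10.2 and 23.3 CPM in vehicle. Srsf2-004 had 21.3, 23.2 and 23.8 CPM in caffeine and 6.20 and 12.7 CPM in vehicle. In these 4 transcripts of Srsf3, Srsf1 and Srsf2 vehicle replicate 1 was the lowest library.

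Among the hnRNP genes with changed usage, the following minor transcripts were higher in every caffeine library. Hnrnph1-008 had 17.7, 15.5 and 17.9 CPM in caffeine and 1.42 and 6.13 CPM in vehicle. Hnrnph1-009 had 26.3, 28.2 and 42.4 CPM in caffeine and 15.2 and 16.0 CPM in vehicle. Hnrnpd-005 had 10.1, 11.3 and 11.7 CPM in caffeine and 4.22 and 3.39 CPM in vehicle. Other minor transcripts were lower in every caffeine library: Hnrnph1-003 had 21.0, 22.4 and 17.5 CPM in caffeine and 35.7 and 26.8 CPM in vehicle, and Hnrnpd-010 had 1.09, 2.36 and 0.0839 CPM in caffeine and 4.50 and 10.5 CPM in vehicle. Hnrnpd-004 and Hnrnpd-012 were lower as well. Of 103 Ensembl transcripts tested over all hnRNP genes, 17 were higher and 16 lower at an unadjusted p under 0.05. Of all transcripts 6.11% were higher and 4.6% lower at that threshold. The major Hnrnpu-001 made up 89.4%, 91.5% and 86.5% of the Hnrnpu counts in caffeine and 98.8% and 95.5% in vehicle, and Hnrnph2-003 made up 20.2%, 22.4% and 15.1% of the Hnrnph2 counts in caffeine and 41.6% and 29.8% in vehicle.

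**Figure D4:**
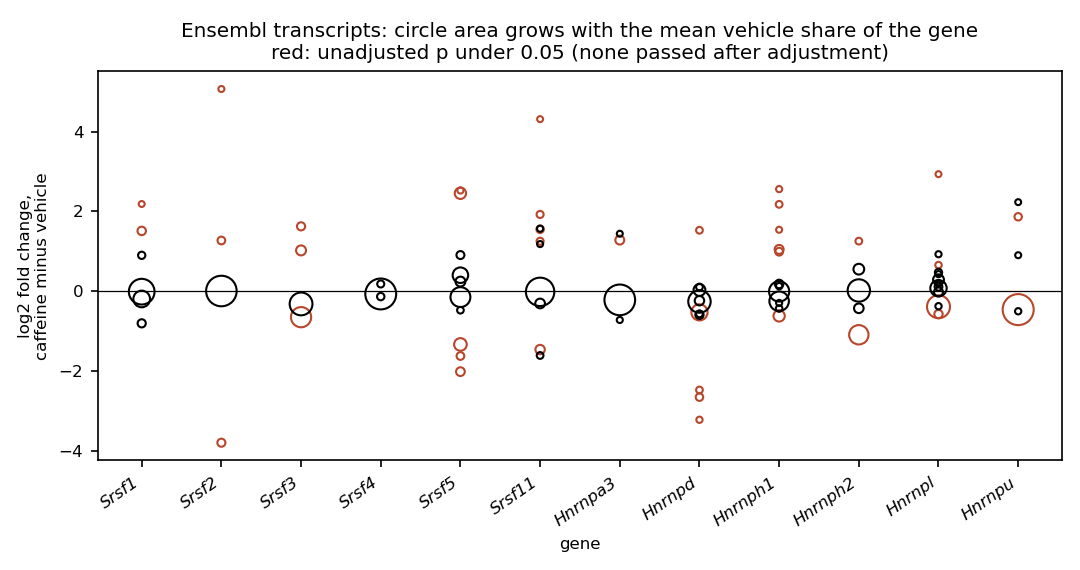
Log2 fold change, caffeine minus vehicle, of each tested Ensembl transcript of the 12 members with changed usage, leaving out transcripts at 0 in a whole group; circle area grows with the transcript's mean share of its gene in vehicle, and red marks an unadjusted p under 0.05. Many transcripts above 0 are small circles, while the large red circles of Srsf3, Hnrnph2, Hnrnpl and Hnrnpu lie below 0.

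**Figure D5:**
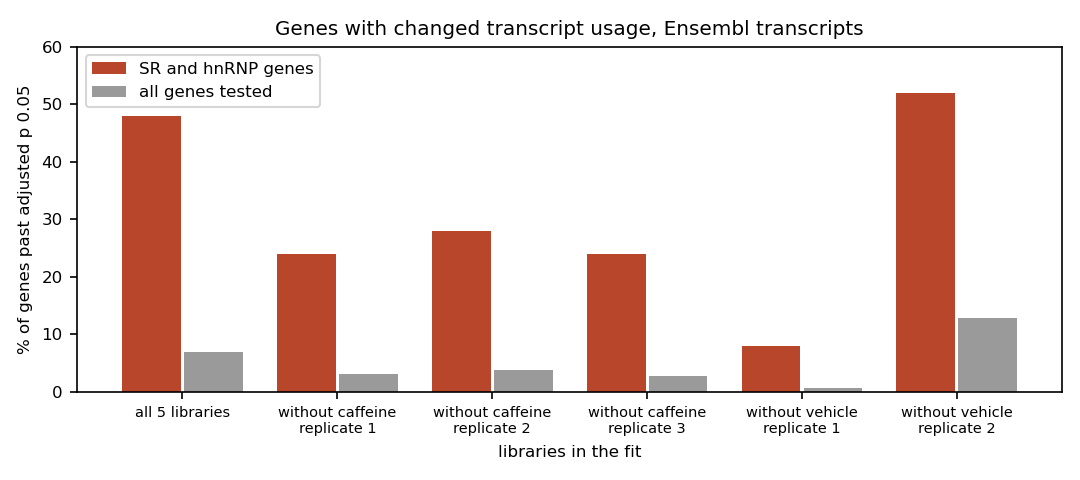
Percentage of SR and hnRNP genes (red) and of all genes tested (grey) past an adjusted p of 0.05 for Ensembl transcript usage, with all 5 libraries and with each left out. The members' share is 48% with all libraries and 8% without vehicle replicate 1, beside 6.94% and 0.651% of all genes.

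Other parts of the splicing and decay machinery were followed through lists chosen with earlier results of these data known. In these lists edgeR and DESeq2 called 0 genes. At an unadjusted p under 0.05 in edgeR there were 3 kinases, 4 core spliceosome genes, 1 decay gene and 2 decay targets, and 0 in the other lists, beside 3.13% higher and 2.07% lower of all genes. Of 11 SR protein kinases 7 had a positive and 4 a negative log2 fold change, with a median of 0.09. Clk3 had 42.0, 44.8 and 49.8 CPM in caffeine and 37.5 and 33.4 CPM in vehicle (log2 fold change 0.36, SE 0.14). Clk2 had 26.8, 28.3 and 28.5 CPM in caffeine and 21.7 and 22.9 CPM in vehicle (log2 fold change 0.32, SE 0.14), both without overlap. Clk1 had 41.1, 32.0 and 30.3 CPM in caffeine and 19.2 and 30.7 CPM in vehicle, and its groups overlapped.

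Of 42 core spliceosome genes tested 6 were positive and 36 negative, with a median log2 fold change of -0.14. Snrpb2, a U2 snRNP protein, had 33.8, 40.0 and 33.0 CPM in caffeine and 51.4 and 46.9 CPM in vehicle (log2 fold change -0.47, SE 0.14). Snrpa1, also of the U2 snRNP, had a log2 fold change of -0.49 (SE 0.16), and the Sm protein gene Snrpe one of -0.42 (SE 0.14). Among 23 hnRNP-class genes under other symbols 8 were positive and 15 negative, with a median of -0.05. The 19 SR-related genes had 10 positive and 9 negative values and a median of 0.05, and the 16 tested tissue-specific splicing regulators 8 and 8 with a median of 0.0050.

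The 17 genes of nonsense-mediated decay and the exon junction complex had 6 positive and 11 negative values, with a median log2 fold change of -0.07. Upf3b, which links the exon junction complex to decay, had 14.4, 14.6 and 10.4 CPM in caffeine and 17.7 and 19.1 CPM in vehicle (log2 fold change -0.49, SE 0.18). Of 4 RNAs known to be degraded by this pathway all 4 were positive, as were 7333 of all 13829 genes tested. Log2 fold changes were 0.36 (SE 0.14) for Atf4, 0.17 (SE 0.18) for Gadd45b and 0.07 (SE 0.29) for Gadd45a. The groups of Gadd45a overlapped, and leaving out a library gave it -0.23 to 0.42. Gas5, a host RNA of small nucleolar RNAs, had 26.5, 31.4 and 28.5 CPM in caffeine and 20.2 and 17.8 CPM in vehicle (log2 fold change 0.60, SE 0.15, edgeR adjusted p = 0.517). Its groups did not overlap, and its log2 fold change was 0.30 in the Ensembl gene table.

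RefSeq usage passed for Luc7l (edgeR adjusted p = 0.00920) among 7 SR-related genes tested and for Khdrbs1 (0.0422) among 10 hnRNP-class genes under other symbols, beside 3.07% of all genes tested. On Ensembl transcripts usage passed for 3 of 13 SR-related genes, 2 of 6 kinases, 6 of 15 hnRNP-class genes under other symbols, 2 of 26 core spliceosome genes and 2 of 10 tissue-specific regulators, beside 6.94% of all genes, with no allowance for the number of transcripts per gene. It passed for 0 of 11 genes of decay and the exon junction complex and 0 of 1 decay target.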

How the data were processed

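RNA was measured in 3 caffeine and 2 vehicle libraries (TruSeq kit, Illumina HiSeq 2000), as the labels and design text give it. The authors deposited estimated counts per gene and per transcript on RefSeq and on Ensembl release 71 annotations, per the file headers; they need not be whole and were not scaled between libraries. TopHat, Partek, mm10 and GRCm38 are named in the submitters' processing notes, with no versions; how reads were shared among transcripts and whether strand was used is not stated in what was used here, and errors of that sharing enter no test. Each pool counted as 1 sample, and p-values measure the spread between these pools.

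Estimated counts were rounded. Features were filtered with filterByExpr and scaled by TMM (factors 0.970 to 1.02), and caffeine was tested against vehicle with edgeR 4.0.16 in R 4.3.3 (robust quasi-likelihood F test, two-sided; common biological coefficient of variation 0.145), adjusted over all features. CPM use the scaled library sizes. SE is the absolute log2 fold change divided by √F. Usage was tested with diffSpliceDGE. Alternatives were RLE scaling, no filter, 5 CPM in 2 libraries, DESeq2 1.42.0, no robust estimation, the replicate number as a block, Simes adjustment, shares per kilobase or from unrounded counts, Ensembl tables and leaving out each library. The Ensembl usage and transcript tests were added after seeing the data. Scripts were tested on simulated data. In the deposited tables stops lie 1 past the annotated end, so ends are the stop minus 1. Transcript structures and sequences come from GENCODE M21 through its RefSeq pairing, with the longest transcript taken where several were paired. Some GENCODE transcripts were paired with more than 1 RefSeq transcript, among them those of Srsf7 and Srsf9. Their lengths entered the summed share per kilobase.

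The members and gene lists were chosen with earlier results of these data known. Named are 14 chosen genes, the 10 genes and 8 transcripts of smallest p, each noncoding transcript with a mean of at least 1 CPM, the 5 genes of smallest usage p and up to 3 genes per list. Srsf12, NR_036616 of Srsf9, the genes named by class or for overlap, the partner transcripts and the Ensembl transcripts were added after their values were seen.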

Additional observations from a re-analysis of the deposited data

How the results depend on the processing

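The count of member genes called was 0 under every alternative run, and so was that of member transcripts except with DESeq2, which called 4. For RefSeq transcript usage, called for 1 member, a filter of 5 CPM in 2 libraries gave 2, beside 4.75% of all genes. The replicate block gave 0, beside 0.104% of all genes, and the Ensembl annotation 12, beside 6.94%. Leaving out a caffeine replicate gave 1 each time, beside 1.24% to 1.72% of all genes. For Ensembl usage, called for 12 members, the replicate block gave 0 and leaving out a library 2 to 13, the lowest without vehicle replicate 1. On Ensembl transcripts the replicate block called 0.0265% of all 7540 genes, beside 6.94% without the block, so calls were lost over all genes. Without caffeine replicates 1, 2 and 3 in turn 6, 7 and 6 members passed, beside 3.02%, 3.83% and 2.8% of all genes. Replicate numbers were not shown to pair the libraries: deviations of same-numbered libraries correlated at -0.02 and 0.13. The noncoding share of Srsf3 and the summed share, which is mostly that of Srsf3, kept their direction under every alternative run. Both moved by less than 1 pooled SD. The shares of other genes were not recomputed. Some near-zero gene values changed sign: Srsf2 with the replicate block (-0.044) and leaving out a library (-0.036 to 0.20), Srsf7 with RLE scaling (-0.0045), DESeq2 (-0.0055), the Ensembl table (-0.0098) and leaving out a library (-0.082 to 0.079), and Hnrnph1 leaving out a library (-0.030 to 0.076). Leaving out a library also turned the sign of Srsf4, Srsf9, Srsf11, Srsf12, Hnrnpf and Hnrnpul1. The cause was not tested. With a mean of 6.6 noncoding counts, depth limits what can be said of Srsf9.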
